A study of Mus musculus with 10 samples.

Results

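The anti-apoptotic members of the Bcl-2 family were followed in mRNA-sequencing of splenic CD8+ cDC1 of Ppef2+/+ and Ppef2-/- mice. They were taken by gene symbol, as the rows Bcl2, Bcl2l1, Bcl2l2, Mcl1, Bcl2a1a, Bcl2a1b and Bcl2a1d of the deposited table. All 7 were present among its 10767 genes. The cells were sorted as CD11c+MHCII+CD8+CD11b- DCs in 5 independent sorts with 3 pooled mice of a genotype per sort. There were 5 Ppef2+/+ and 5 Ppef2-/- libraries. The Ppef2+/+ and the Ppef2-/- library of the same replicate number were taken as those of 1 sort, a pairing that the paper does not spell out. Mice were untreated, 8 to 13 weeks old and matched for sex and age. Ppef2-/- mice carried a knock-out first allele from JM8A3.N1 embryonic stem cells, a lacZ gene trap between exons 4 and 5 of Ppef2 with a floxed exon 5, and were crossed with C57BL/6 mice. The allele is carried by all cells of the animal and not only by DCs. Because 3 mice were pooled, the spread between libraries is a spread between pools, not between single animals.

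Apoptosis through mitochondria is decided by binding among Bcl-2 family proteins. Anti-apoptotic members hold the pore-forming effectors Bax and Bak in check and bind BH3-only proteins such as Bim, and cells die when BH3-only proteins outnumber the free binding sites. Mcl-1 is a short-lived protein that is made and degraded continuously, whereas Bcl-2 and Bcl-xL (the product of Bcl2l1) are stable. Bcl-w (Bcl2l2) is a close relative of Bcl-xL. A1, the product of the mouse Bcl2a1 genes, is also short-lived and is a target of NF-kB in activated immune cells. Mcl-1 and Bcl-2 are both known to support DC survival.

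The 7 genes lie on 5 chromosomes of GRCm38, the assembly called mm10 (GENCODE M21 annotation). Bcl2 is located on chromosome 1 from 106538178 to 106714274 on the minus strand, Bcl2l1 on chromosome 2 from 152780668 to 152831728 on the minus strand, Mcl1 on chromosome 3 from 95658788 to 95663176 on the plus strand and Bcl2l2 on chromosome 14 from 54883377 to 54888234 on the plus strand. The 3 Bcl2a1 genes are near-identical copies on chromosome 9. Bcl2a1d covers 88723285 to 88731914 on the minus strand, Bcl2a1a 88956900 to 88962419 and Bcl2a1b 89199209 to 89207827, both on the plus strand. The library kit did not mark strand. Exons of Bcl2 share 558 bp with the antisense gene D630008O14Rik, exons of Bcl2l2 share 594 bp with Gm20521 and exons of Bcl2a1b share 401 bp with Gm29094, so reads from these stretches cannot be told apart. None of the 3 overlapping genes is in the table.

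The copies on chromosome 9 set a limit on what 50 bp single-end reads can resolve, which is why their sequences are shown. Each coding sequence has 516 bases, and the bases differ among the 3 genes at 12 positions. Bcl2a1a and Bcl2a1b are 97.9% identical, Bcl2a1a and Bcl2a1d 98.6%, and Bcl2a1b and Bcl2a1d 98.8%. The window of 60 bases with the most differences is at the start of the coding sequence (coding bases 1 to 60, GENCODE M21 transcripts, 5' to 3'), where capitals mark the 6 positions at which the genes are not all alike.
Bcl2a1a: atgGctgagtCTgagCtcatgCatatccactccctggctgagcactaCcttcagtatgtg
Bcl2a1b: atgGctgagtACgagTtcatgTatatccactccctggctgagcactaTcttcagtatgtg
Bcl2a1d: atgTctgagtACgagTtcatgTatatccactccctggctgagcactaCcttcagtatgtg
The longest stretch shared by all 3 genes has 217 bases (coding bases 95 to 311), and a read from within it carries no base that tells the genes apart.
Bcl2a1a, Bcl2a1b and Bcl2a1d: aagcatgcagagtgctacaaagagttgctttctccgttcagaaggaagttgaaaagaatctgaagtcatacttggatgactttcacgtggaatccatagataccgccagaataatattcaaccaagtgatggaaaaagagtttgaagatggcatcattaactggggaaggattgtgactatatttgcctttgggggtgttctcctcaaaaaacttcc

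Along the whole transcripts, 69.0% of the 770 possible 50-base reads of Bcl2a1a occur exactly in at least 1 of the other copies. The same holds for 57.6% of 768 in Bcl2a1b and 79.5% of 814 in Bcl2a1d. With up to 1 mismatch allowed, the shares were 89.2, 98.7 and 93.9%. In all these shares, Bcl2a1c, a further gene of the annotation that is not a member here, was also counted as another copy. How the authors assigned reads that match several genes is not given in the sources used here, and the 3 values below are therefore uncertain as values of single genes.

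The values are normalized read counts, in which the authors had scaled the reads of each library to a common depth. In the table, the mean of each sort had also been taken out of every gene, so that the deviations of its Ppef2+/+ and its Ppef2-/- library are mirror images. A difference within a sort is not touched by this, but the spread between sorts is missing. Whole reads were therefore solved from the values, which was possible for 9599 of 9627 genes with all values under 1000 and for 6 of the 7 members. Mcl1 was above this range. Values "from whole reads" below are reads times the value of 1 read in that library, with the sort means put back. Solved reads numbered 1394657 to 2271167 per Ppef2+/+ library and 1506215 to 4403859 per Ppef2-/- library, and the depth of the Ppef2-/- over that of the Ppef2+/+ library was 2.95, 2.31, 1.60, 0.875 and 0.727 in sorts 1 to 5.

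The labels were first checked on the targeted gene. Ppef2 had 95 to 228 reads per Ppef2+/+ library and 0 to 8 reads per Ppef2-/- library. All 13 cDC1 markers on the list used here, among them Xcr1, Clec9a, Batf3 and Irf8, were in the table, with a sum of 121600 to 127600 normalized counts in Ppef2+/+ and 122300 to 128300 in Ppef2-/- libraries. None of 6 T cell and NK cell markers was in the table. Of 5 cDC2 markers 4 were present, of 5 neutrophil markers 2, of 7 monocyte and macrophage markers 5, and of 5 erythroid and platelet markers 4, with overlapping sums in the genotypes. The B cell genes Cd79b and Ms4a1 were present, with a sum of 164 to 183 in Ppef2+/+ and 162 to 182 in Ppef2-/- libraries. It was higher in Ppef2-/- in 4 of 5 sorts, compared to 19.2% of all genes that were higher in at least 4. The sum of the 5 pDC markers was 852 to 983 in Ppef2+/+ and 696 to 825 in Ppef2-/- libraries. It was lower in 5 of 5 sorts, compared to 2.92% of all genes, with 0 of 5 genes at an adjusted p under 0.05 in limma. All these sums are of deposited values, without the spread between sorts. The ranges of the genotypes therefore nearly mirror each other and part when all 5 sorts go one way. The part of pDC and B cell RNA in the values of the Bcl-2 family was not tested. In bulk RNA, fewer cells that express a gene and less RNA per cell cannot be told apart.

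Mcl1 and the Bcl2a1 genes were the abundant anti-apoptotic transcripts of CD8+ cDC1, and Bcl2, Bcl2l1 and Bcl2l2 were low. Per kb of exon, the mean of Mcl1 in Ppef2+/+ was 1151 ± 26.3 (SD, n = 5) normalized counts. Bcl2a1d followed with 803 ± 30.6, Bcl2a1b with 752 ± 34.8 and Bcl2a1a with 499 ± 38.8 (SD, n = 5 each). These 4 genes were above 95.8% or more of the 10373 genes with a known length, and Mcl1 ranked at 183. The other 3 were in the lower part of the table. Bcl2l2 had 18.4 ± 3.22 normalized counts per kb, Bcl2l1 14.7 ± 2.21 and Bcl2 7.19 ± 1.08 (SD, n = 5 each). They were above 30.2, 25.0 and 12.3% of the genes. Between Bcl2a1a and Bcl2l2, the level per kb fell by 27.1-fold. The deposited values of Bcl2a1d and Bcl2a1b overlapped in Ppef2+/+ but not in Ppef2-/- libraries (at least 819 per kb compared to at most 813), and Bcl2a1d was the higher one in all 10 libraries. In values from whole reads, which keep the spread between sorts, their ranges overlapped in both genotypes and Bcl2a1d was higher in 6 of 10 libraries. The values of Bcl2l2 and Bcl2l1 overlapped in both genotypes. Bcl2l2 was the higher one in 6 of 10 libraries by deposited values and in 8 of 10 by values from whole reads, and this was not tested. The other 4 pairs of neighbours in the order had no overlap in either genotype. When the length of the longest transcript was used in place of all exons, Bcl2l1 (26.3 per kb) moved above Bcl2l2 (21.6 per kb), and the other places did not change.

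**Figure D1:**
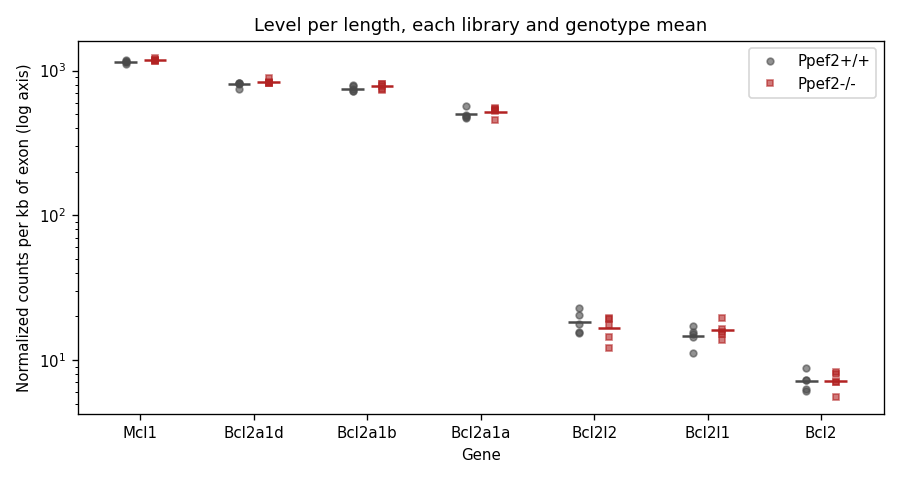
Level of each anti-apoptotic gene in normalized counts per kb of exon (log axis) in the 5 Ppef2+/+ (grey circles) and 5 Ppef2-/- libraries (red squares), with horizontal bars for genotype means. Mcl1 and the Bcl2a1 genes lie between 454 and 1231, while Bcl2l2, Bcl2l1 and Bcl2 lie between 5.53 and 22.9.

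In Ppef2-/- libraries the order was the same, with 1189 ± 26.3 normalized counts per kb for Mcl1, 840 ± 30.6 for Bcl2a1d, 778 ± 34.8 for Bcl2a1b, 521 ± 38.8 for Bcl2a1a, 16.6 ± 3.22 for Bcl2l2, 16.1 ± 2.21 for Bcl2l1 and 7.20 ± 1.08 for Bcl2 (SD, n = 5 each). The SDs equal those of Ppef2+/+ because the sort means were removed. Without regard to length, Mcl1 alone made up 65.9 to 68.9% of the summed normalized counts of the 7 genes in Ppef2+/+ libraries. In Ppef2-/- libraries its share was 65.3 to 68.3%.

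No anti-apoptotic gene passed the test of a difference between the genotypes. In limma, with sorts as blocks, 0 of 7 members had an adjusted p under 0.05 (Benjamini-Hochberg over all genes), compared to 0.00929% of all genes, which is Ppef2 alone. At an unadjusted p under 0.05 there were also 0 of 7 members, compared to 4.29% of all genes. With voom on whole reads, 0 of 6 members were called, compared to 0.0313% of 9599 genes with the block and 0.0104% with no block. The deposited values with no block also gave 0 of 7 members, compared to 0.957% of all genes. The median log2 fold change of the members was 0.05, with 6 of 7 above 0 (Bcl2 by 0.0004), and that of all genes was 0.00. The Bcl2a1 genes share sequence, so their rows may hold the same reads and may not be independent members. The median size of the log2 fold change, regardless of sign, was 0.06 in the members and 0.07 in all genes.

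**Figure D2:**
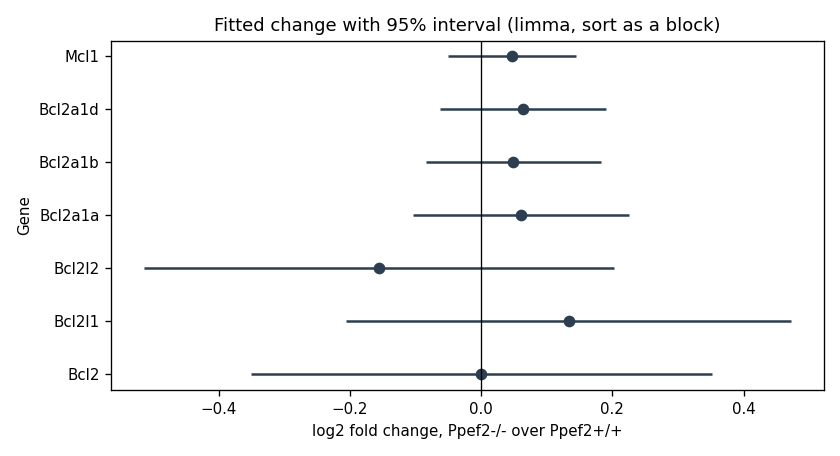
Fitted log2 fold change of Ppef2-/- over Ppef2+/+ for each anti-apoptotic gene (points) with its 95% interval (lines), from the blocked limma fit on log2(normalized count + 1). All 7 intervals include 0, and they are narrowest for Mcl1 (-0.05 to 0.14) and widest for Bcl2l2 (-0.51 to 0.20).

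How much change these data leave room for differed between the abundant and the low genes. The variance in the fit follows a trend with abundance, and a dependence of the intervals on abundance was not tested. For Mcl1, the 95% interval of the ratio of Ppef2-/- to Ppef2+/+ went from 0.966 to 1.11. It went from 0.958 to 1.14 for Bcl2a1d, from 0.943 to 1.13 for Bcl2a1b and from 0.930 to 1.17 for Bcl2a1a. The low genes were measured less precisely, with intervals from 0.784 to 1.28 for Bcl2, from 0.867 to 1.39 for Bcl2l1 and from 0.700 to 1.15 for Bcl2l2. Thus a change of Mcl1 by more than 1.11-fold is outside its interval, whereas an increase of Bcl2l1 by up to 1.39-fold is within its interval.

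Mcl1, which encodes the short-lived guardian that binds Bim, Noxa and Bak, was the most abundant member. Its normalized counts in Ppef2+/+ libraries of sorts 1 to 5 were 3988, 3936, 3925, 4033 and 3794. In Ppef2-/- libraries they were 4012, 4064, 4076, 3968 and 4207. The Ppef2-/- library was the higher one in every sort but sort 4, and the widest gap was in sort 5. The difference within sorts was 130.0 ± 179.9 normalized counts (SD, n = 5), or 3.30% of the Ppef2+/+ mean (exact two-sided permutation test within sorts, p = 0.188). Without sort 5 it was 59.4. An exact test of 5 pairs cannot give a p below 0.062. Limma gave a log2 fold change of 0.05 (standard error 0.05, adjusted p = 0.995).

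Bcl2, the founding member of the family, was the least abundant per length. Its reads in sorts 1 to 5 numbered 58, 50, 37, 88 and 45 in Ppef2+/+ and 105, 112, 76, 75 and 47 in Ppef2-/- libraries. At the depth of these libraries, this amounted to 79.4, 68.2, 55.6, 81.3 and 44.8 normalized counts in Ppef2+/+. The Ppef2-/- libraries had 48.8, 66.2, 71.2, 79.3 and 64.4. Ppef2-/- was lower in sort 1, close to Ppef2+/+ in sorts 2 and 4 and higher in sorts 3 and 5, and the ranges of the genotypes overlapped. The means from whole reads were 65.9 ± 15.6 in Ppef2+/+ and 65.9 ± 11.2 in Ppef2-/- (SD, n = 5, exact two-sided permutation test of 5 against 5 libraries, p = 0.984). Within sorts, Ppef2-/- differed from Ppef2+/+ by 0.086 ± 19.82 normalized counts (SD, n = 5). Limma gave a log2 fold change of 0.00 (standard error 0.17, adjusted p = 1.00).

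Bcl2l1 encodes Bcl-xL, which also binds Bim and Bax. It had 44, 55, 45, 70 and 70 reads in Ppef2+/+ and 96, 131, 82, 98 and 49 reads in Ppef2-/- libraries of sorts 1 to 5. From these reads, Ppef2+/+ libraries had 60.2, 75.0, 67.6, 64.7 and 69.7 normalized counts and Ppef2-/- libraries 44.6, 77.4, 76.8, 103.6 and 67.1. The Ppef2-/- values spanned the Ppef2+/+ values, with the lowest library in sort 1 and the highest in sort 4. The means were 67.5 ± 5.51 in Ppef2+/+ and 73.9 ± 21.2 in Ppef2-/- (SD, n = 5, exact two-sided permutation test of 5 against 5 libraries, p = 0.571). Within sorts, Ppef2-/- differed by 6.44 ± 20.28 normalized counts (SD, n = 5, exact two-sided permutation test within sorts, p = 0.6875). Limma gave a log2 fold change of 0.13 (standard error 0.16, adjusted p = 0.995). It rests on sort 4, without which it was -0.03.

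Bcl2l2, the gene of Bcl-w, had 87, 56, 51, 74 and 71 reads in Ppef2+/+ and 153, 157, 53, 64 and 65 reads in Ppef2-/- libraries. This corresponds to 119.1, 76.3, 76.7, 68.4 and 70.7 normalized counts in Ppef2+/+ and to 71.1, 92.8, 49.7, 67.6 and 89.0 in Ppef2-/-. The Ppef2+/+ library of sort 1 was apart from the other Ppef2+/+ libraries, and the genotypes overlapped. The means were 82.2 ± 20.9 in Ppef2+/+ and 74.0 ± 17.5 in Ppef2-/- (SD, n = 5, exact two-sided permutation test of 5 against 5 libraries, p = 0.516). Within sorts, Ppef2-/- differed by -8.218 ± 28.75 normalized counts (SD, n = 5, exact two-sided permutation test within sorts, p = 0.5625). Bcl2l2 was the only member with a log2 fold change below 0, at -0.16 (standard error 0.17, adjusted p = 0.995 from limma), and this was 0.03 without sort 1.

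**Figure D3:**
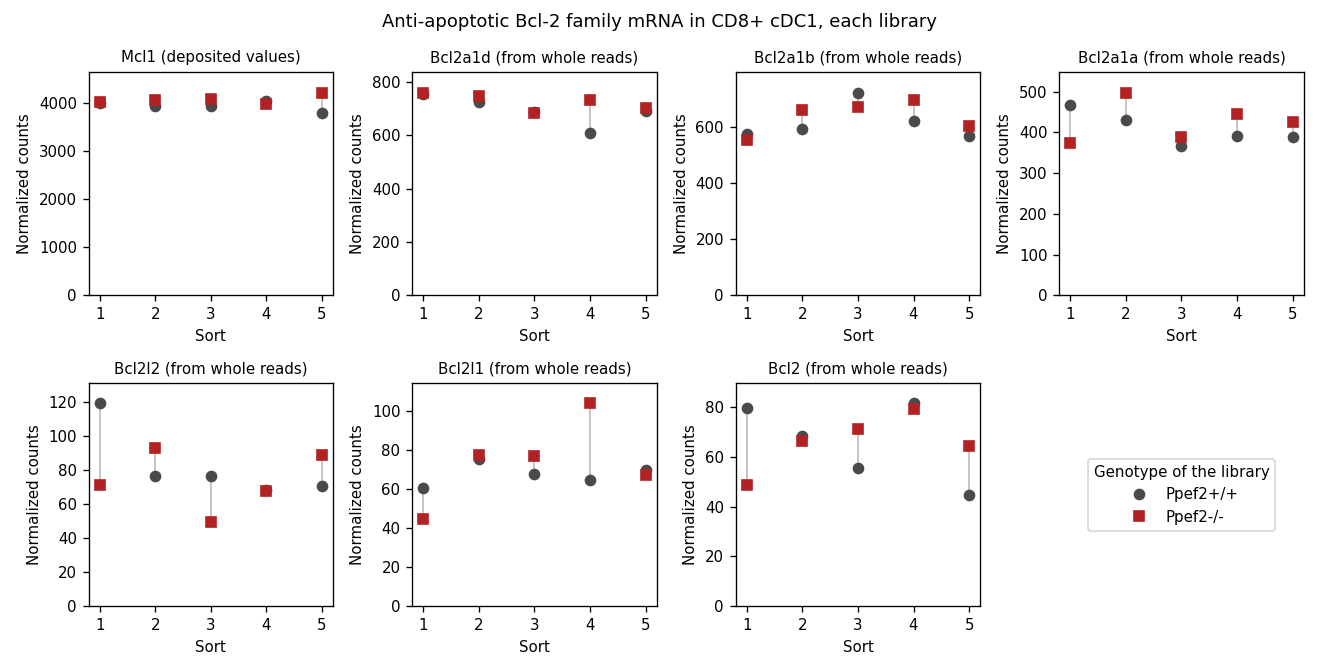
Normalized counts of each anti-apoptotic gene in the Ppef2+/+ (grey circles) and the Ppef2-/- library (red squares) of each of the 5 sorts, joined by a line. All y axes start at 0, values are from whole reads except for Mcl1 (deposited values), and in no panel do the 2 genotypes separate.

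The Bcl2a1 genes encode A1, which binds Bim, Bid and Noxa. Bcl2a1d had 754, 725, 687, 609 and 691 normalized counts from whole reads in Ppef2+/+ libraries of sorts 1 to 5. In Ppef2-/- libraries it had 760, 746, 683, 733 and 701. The genotypes were close in all sorts but sort 4, where the Ppef2+/+ library was the lowest of all 10. The difference within sorts was 31.4 ± 52.8 normalized counts (SD, n = 5, exact two-sided permutation test within sorts, p = 0.125), and it was 8.11 without sort 4.

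Bcl2a1b had 575, 592, 722, 619 and 566 normalized counts from whole reads in Ppef2+/+ and 553, 660, 669, 696 and 601 in Ppef2-/- libraries. It was higher in Ppef2-/- in sorts 2, 4 and 5 and lower in sorts 1 and 3. The difference within sorts was 21.2 ± 56.8 (SD, n = 5, exact two-sided permutation test within sorts, p = 0.438), and it was 9.44 without sort 2, 39.7 without sort 3, 7.22 without sort 4 and 32.1 without sort 1. Bcl2a1a had 467, 431, 367, 392 and 388 normalized counts in Ppef2+/+ and 375, 497, 389, 446 and 426 in Ppef2-/- libraries. It was lower in Ppef2-/- in sort 1 and higher in the other 4 sorts, with a difference of 17.7 ± 63.6 (SD, n = 5, exact two-sided permutation test within sorts, p = 0.625). This was 45.1 without sort 1, 5.39 without sort 2 and 8.54 without sort 4.

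The copies were also added up, although the sum too depends on whether reads that match several copies were divided, dropped or counted for each. The 3 genes together had 1796, 1748, 1775, 1620 and 1645 normalized counts from whole reads in Ppef2+/+ libraries and 1687, 1904, 1741, 1876 and 1728 in Ppef2-/- libraries. Ppef2-/- was higher in 3 of 5 sorts, and the means were 1717 ± 79.3 and 1787 ± 96.4 (SD, n = 5). Each sum rested on 1181 to 1753 reads in Ppef2+/+ and on 1262 to 3633 reads in Ppef2-/- libraries. The ranges of each copy's share of the sum overlapped between the genotypes. Bcl2a1a made up 23.8 ± 1.97% of the sum in Ppef2+/+ and 23.8 ± 1.64% in Ppef2-/-, Bcl2a1b 35.8 ± 3.52 and 35.6 ± 2.23%, and Bcl2a1d 40.4 ± 2.07 and 40.6 ± 2.54% (SD, n = 5 each).

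Across the family, as in most genes of the table, the direction of the difference changed from sort to sort. None of the 7 members moved one way in all 5 sorts, compared to 3.26% of all genes that were higher and 2.92% that were lower in Ppef2-/- in 5 of 5 sorts. Mcl1, Bcl2a1a and Bcl2a1d were higher in 4 of 5 sorts, compared to 19.2% of all genes that were higher in at least 4. No member was lower in at least 4, compared to 18.1% of all genes. Rows of the Bcl2a1 genes may share reads, so they may not be independent members in these counts. None of the 6 members with whole reads had genotypes whose ranges did not overlap, compared to 0.542% of 9599 genes.

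**Figure D4:**
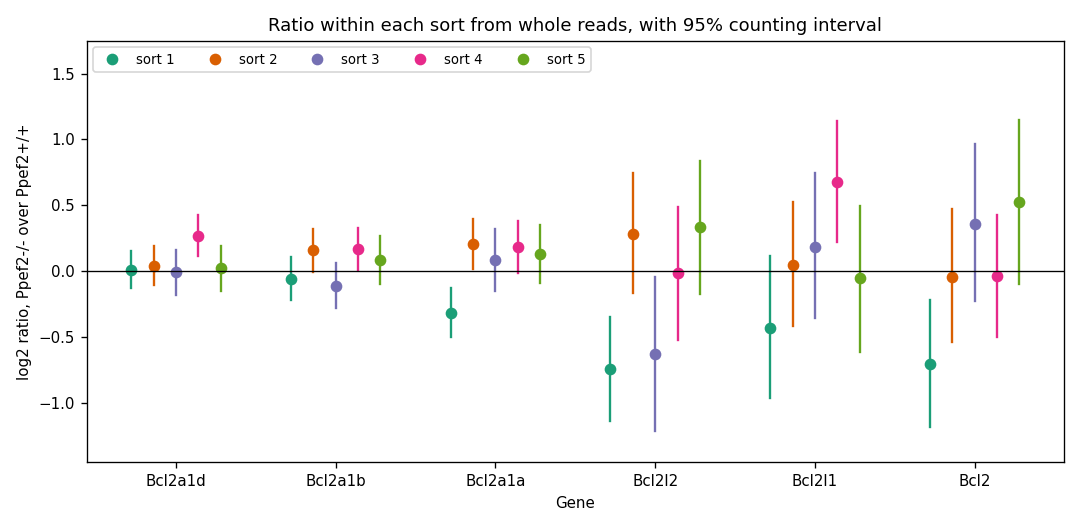
Log2 ratio of Ppef2-/- to Ppef2+/+ within each sort (colours) for the 6 anti-apoptotic genes with whole reads; lines are 95% counting intervals from the exact Clopper-Pearson method. In sort 1 the points lie between -0.75 (Bcl2l2) and 0.01 (Bcl2a1d), and in sort 4 between -0.04 (Bcl2) and 0.68 (Bcl2l1).

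Within single sorts, some ratios were beyond counting error. Of the 30 ratios of a member within a sort, 8 had a 95% interval from the read numbers that left out 1 (exact, by Clopper-Pearson, for counting error only), and 4 of these were higher and 4 lower in Ppef2-/-. Over all 9599 genes, the same was found for 18.2% of the 47987 ratios of a gene with reads within a sort. These shares depend on read numbers, and the members were not compared with genes of like read numbers. Ratios of the Bcl2a1 genes in the same sort may also rest on shared reads and may not be independent. In sort 1, Bcl2 was at 0.614 of Ppef2+/+ (interval 0.442 to 0.862), Bcl2l2 at 0.597 (0.456 to 0.785) and Bcl2a1a at 0.803 (0.707 to 0.914). Bcl2l2 was also lower in sort 3, at 0.648 (0.433 to 0.971). The higher ones were Bcl2l1, Bcl2a1b and Bcl2a1d in sort 4, at 1.60 (1.17 to 2.21), 1.12 (1.01 to 1.25) and 1.20 (1.08 to 1.34), and Bcl2a1a in sort 2, at 1.15 (1.01 to 1.32). Such a ratio compares 1 library with 1 library and not the genotypes. Sort 1 was also the sort with the widest gap in depth between its libraries (2.95), and the part of depth in these ratios was not tested.

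The spread of the ratio between sorts holds differences between pools of mice as well as counting error. Its SD was above that from read numbers in all 6 genes, as in 77.1% of the 9570 genes with reads in all libraries, and this was not tested for single genes. The SD of the log2 ratio over the 5 sorts was 0.47 for Bcl2, where read numbers alone give 0.26. It was 0.40 for Bcl2l1 (0.25 from read numbers) and 0.50 for Bcl2l2 (0.24). In the Bcl2a1 genes the spread was smaller, at 0.21 for Bcl2a1a (0.10 from read numbers), 0.13 for Bcl2a1b (0.08) and 0.11 for Bcl2a1d (0.08). Among Ppef2+/+ libraries alone, Bcl2l1 varied by 8.17% (SD over mean), less than the 13.3% from its read numbers, whereas Bcl2l2 varied by 25.4% (12.1% from read numbers) and Bcl2 by 23.7% (13.4%).

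The genes that act with the anti-apoptotic members also did not pass the test. Of 40 genes on 6 lists, 34 were in the table, and 0 rose and 0 fell at an adjusted p under 0.05 in the blocked limma fit. The adjusted share over all genes is 0.00929%. At an unadjusted p under 0.05, 2 were higher and 1 was lower, or 8.82% of 34 compared to 4.29% of all genes. In 5 of 5 sorts, 3 were higher and 3 were lower, compared to 3.26 and 2.92% of all genes. Their median log2 fold change was 0.03, compared to 0.00 in all genes. The means and SDs of these genes below are of deposited values. Because the sort means were removed, the SDs are equal in both genotypes and reflect only the spread of the differences within sorts. They are not the spread among 5 libraries of a genotype and understate it where sorts differ.

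BH3-only proteins bind and neutralise the anti-apoptotic members. Of 8 such genes 6 were measured (not Bik and Hrk), with a median log2 fold change of 0.01. Bid, which links caspase-8 to mitochondria, had 397 ± 9.28 normalized counts in Ppef2+/+ and 337 ± 9.28 in Ppef2-/- libraries (SD, n = 5) and was lower in 5 of 5 sorts. Its log2 fold change was -0.24 (standard error 0.07, unadjusted p = 0.0027, adjusted p = 0.995 from limma). Only in the fit with no block did Bid pass (adjusted p = 0.0182 from limma). Bbc3, which encodes Puma, had 82.2 ± 10.4 and 98.3 ± 10.4 normalized counts (SD, n = 5, log2 fold change 0.26, adjusted p = 0.995 from limma).

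Neither measured effector, the pore-forming Bak and Bax, passed the test. Bak1 had 601 ± 22.7 and 579 ± 22.7 normalized counts in Ppef2+/+ and Ppef2-/- libraries, and Bax 309 ± 22.3 and 316 ± 22.3 (SD, n = 5, adjusted p = 0.995 and 0.997 from limma). Bok was not in the table. Of other Bcl-2 like genes, Bcl2l12, Bcl2l13 and Bcl2l14 were measured, with log2 fold changes from -0.10 to 0.09.

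Mcl-1 protein is turned over by ubiquitin ligases and deubiquitinases, of which 5 of 6 listed genes were measured. Huwe1, the gene of the ligase Mule, had 3395 ± 58.6 normalized counts in Ppef2+/+ and 3592 ± 58.6 in Ppef2-/- libraries (SD, n = 5) and was higher in 5 of 5 sorts. Its log2 fold change was 0.08 (adjusted p = 0.995 from limma). Fbxw7, which encodes the substrate receptor of another Mcl-1 ligase, had 171 ± 10.4 and 195 ± 10.4 normalized counts (SD, n = 5), and was also higher in 5 of 5 sorts (log2 fold change 0.19, adjusted p = 0.995 from limma). Levels of mRNA do not show the amount of Mcl-1 protein.

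All 5 NF-kB subunits were measured, as A1 is an NF-kB target. Nfkb2 had 1017 ± 46.7 normalized counts in Ppef2+/+ and 1115 ± 46.7 in Ppef2-/- libraries, and Rel 1152 ± 38.2 and 1252 ± 38.2 (SD, n = 5). They were higher in 5 and 4 of 5 sorts, with log2 fold changes of 0.13 and 0.12 (unadjusted p = 0.0324 and 0.0366, adjusted p = 0.995 for both from limma). Of 13 genes of survival signals, which included the receptors Flt3 and Il4ra and the Stat and Akt genes, all were measured, with log2 fold changes from -0.12 to 0.15. The smallest unadjusted p on this list was that of Akt1, which had 1191 ± 29.2 and 1109 ± 29.2 normalized counts, followed by Stat5a with 363 ± 12.8 and 334 ± 12.8 (SD, n = 5, adjusted p = 0.995 for both from limma). Both were lower in 5 of 5 sorts.

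**Figure D5:**
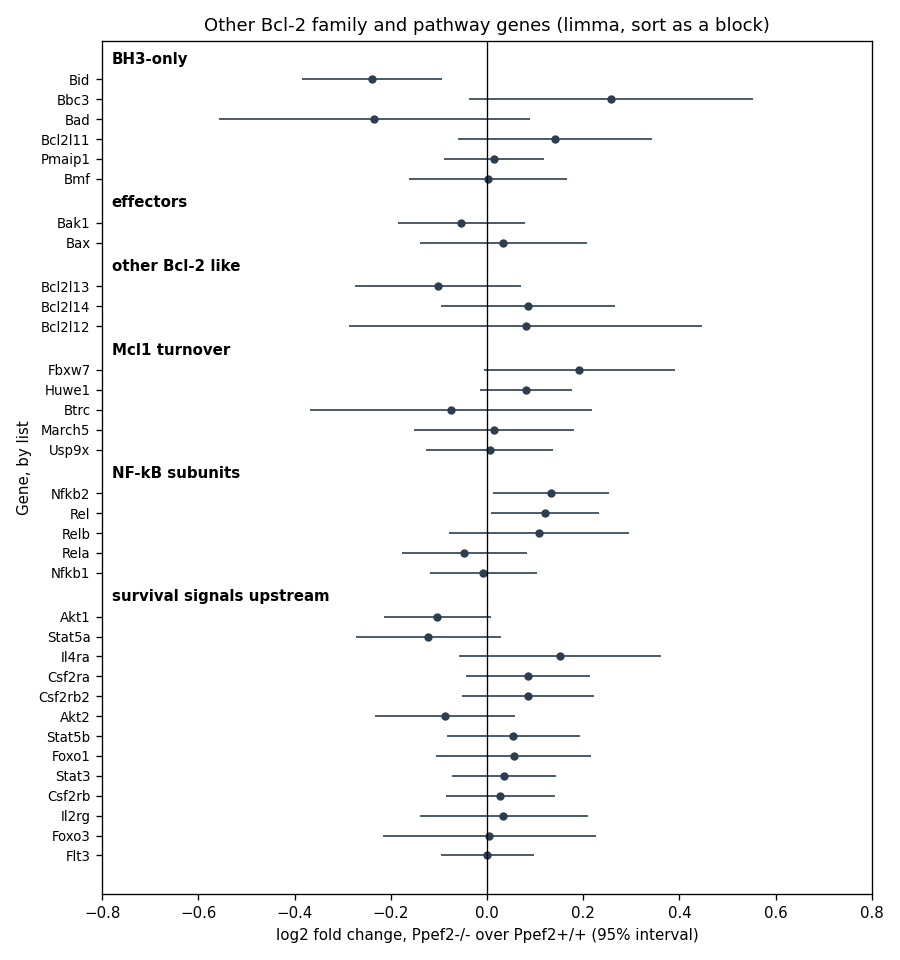
Log2 fold change of Ppef2-/- over Ppef2+/+ (points) with 95% intervals (lines) for 34 genes of the pathway, grouped by list, from the blocked limma fit. The intervals leave out 0 for Bid (-0.24), Nfkb2 (0.13) and Rel (0.12), none of which passed after adjustment over all genes.

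Genes whose differences over the 5 sorts were most like those of Bcl2, Bcl2l1 and Mcl1 were looked up among those with a mean of at least 100 normalized counts, as a description over 5 sorts. Nearest to Bcl2 were H2-Eb2 and Snn, at a root mean square distance of 0.11 and 0.13 on the log2 scale. Nearest to Bcl2l1 were Il4ra (0.07) and Pfkp (0.11), and nearest to Mcl1 were Lyar and St3gal1 (0.03 each). About 6860 genes were compared for each, and the differences share the libraries and their depth.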

How the data were processed

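Messenger RNA of sorted splenic CD8+ cDC1 was sequenced as 50 bp single-end reads from 5 Ppef2+/+ and 5 Ppef2-/- libraries. According to the methods of the paper, reads were aligned to mm10 with HISAT and counted per RefSeq gene in Partek Genomics Suite; the submitters' processing notes list TopHat2 2.0.3, Partek 6.6, R 3.0.2 and DESeq2. The authors normalized the counts with DESeq2, set values below 1 to 1, left out genes with a mean under 10 in both genotypes, and deposited this normalized count signal. All 10 columns were used and 0 were left out. For 10721 genes, those with no value at the floor of 1, the sums of both libraries of a sort were constant over the sorts (spread at most 6.3e-06), a step that is not named in the sources used here.

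Both libraries of a replicate number were taken as those of 1 sort, and the constant sums above were found for these pairs. In values from whole reads, libraries of the same sort deviated together with r = 0.552, 0.328, 0.491, 0.476 and 0.094 in sorts 1 to 5 over 5717 genes, which was higher than with every other sort in 1 of 5 sorts.

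Differences were tested with limma 3.58.1 in R 4.3.3 (lmFit, eBayes with a trend, two-sided) on log2(normalized count + 1), with the sort as a block and Benjamini-Hochberg adjustment over 10767 genes. This scale understates the change of low genes. The model in the paper's methods has no block. On simulated data with 200 changed genes, the blocked fit recovered 97.9% of genes changed by 1 and 100% of those changed by 2 on the log2 scale, with 4 unchanged genes called, whereas the fit with no block called 273 unchanged genes. The simulation gave all genes the same dispersion, which was not taken from these data, and changed no gene of low mean. Its recovery may therefore not hold for the real table. There, 14 genes passed the thresholds of the study with the sort as a block, and 1 had an adjusted p under 0.05. Smaller changes, such as those fitted for the members, were not simulated, so their recovery is not known. Whole reads were solved by finding the value of 1 read in each library and, for each gene, the only read numbers that fit all sort sums within rounding. In simulated data, 9543 of 9544 genes were solved, all to the drawn reads. Intervals from reads are at 95% and cover counting error only. Gene lengths from GENCODE M21 matched 10373 genes (96.3%).

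The members and the lists were chosen with earlier results of these data known. Genes named are the 7 members, Ppef2, the 2 genes per pathway list with the smallest unadjusted p (none had an adjusted p under 0.05), and the 2 nearest genes of Bcl2, Bcl2l1 and Mcl1 by their differences over the sorts. Other genes are named as members of a list. Of a further marker list, only Cd79b and Ms4a1 are reported here. As alternatives, other pseudocounts, a filter on the mean, other scalings, no trend, no log, no block, the thresholds of the study, whole reads with voom, and leaving out each sort were tried. The fit on whole reads with no block and the permutation test of unlinked libraries were added after seeing the data.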

Additional observations from a re-analysis of the deposited data

Results flagged for a closer look

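Dixon's ratio was calculated for the extreme libraries of 26 groups, each with the 5 libraries of a genotype, and exceeded its limit in 5 of them, where chance gives about 1.3. The groups are not independent, since deposited values of both genotypes are mirror images. In sort 1, the Ppef2+/+ library had 119 normalized counts of Bcl2l2 from whole reads, while the other Ppef2+/+ libraries had 68.4 to 76.7. The deposited values of Bcl2a1a in sort 1 were the highest of Ppef2+/+ (464) and the lowest of Ppef2-/- (372), which is a single deviation. Those of Bcl2a1d in sort 4 were the lowest of Ppef2+/+ (647) and the highest of Ppef2-/- (771), again a single deviation. In values from whole reads, no library of Bcl2a1a or Bcl2a1d was apart from its genotype by the same ratio.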

How the results depend on the processing

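No member had an adjusted p under 0.05 under any alternative tried. The smallest unadjusted p among the 103 alternative values was 0.0589 (Bcl2a1a without sort 1) and the smallest adjusted p 0.355. The replicate block changed no call among the members. With no replicate block, 103 genes in all and 1 gene of the pathway lists (Bid) had an adjusted p under 0.05, compared to 1 and 0 with the block. The count over all genes was also 0 for eBayes without a trend, 14 by the thresholds of the study, 3 with voom on whole reads and the replicate block, and 1 to 4 when each sort was left out (2 without sort 1 and 4 without sort 4). The log2 fold change of Bcl2, 0.0004 in the main comparison, was -0.0004 with rescaled libraries, -0.0035 with centred libraries, and -0.039 with voom and -0.0466 with voom and no replicate block. That of Bcl2l1 was -0.0117 with voom and no replicate block. When each sort was left out, the log2 fold change ranged from -0.11 to 0.17 for Bcl2, from -0.03 to 0.25 for Bcl2l1 and from -0.28 to 0.03 for Bcl2l2, and the mean difference within sorts of these 3 genes from -4.78 to 7.77, from -1.67 to 11.96 and from -14.9 to 1.74 normalized counts. The directions turned without sort 3 or 5 (Bcl2), sort 4 (Bcl2l1, to -0.0338) and sort 1 (Bcl2l2, to 0.0311). Mcl1 and the Bcl2a1 genes remained above 0 under every alternative that included them (voom left out Mcl1), with log2 fold changes from 0.02 to 0.06 for Mcl1, 0.02 to 0.16 for Bcl2a1a, 0.02 to 0.09 for Bcl2a1b and 0.02 to 0.08 for Bcl2a1d when a sort was left out, and mean differences from 59.4 to 178.7, 5.39 to 45.1, 7.22 to 39.7 and 8.11 to 40.2 normalized counts. Per kb of the longest transcript, Bcl2 was at 9.16 and Bcl2l1 at 26.3 in Ppef2+/+, in place of 7.19 and 14.7. With up to 1 mismatch, 89.2, 98.7 and 93.9% of the possible reads of Bcl2a1a, Bcl2a1b and Bcl2a1d were shared with another Bcl2a1 gene, Bcl2a1c included. Bcl2, Bcl2l1 and Bcl2l2 had 37 to 157 reads per library, which sets a lower bound to their error.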
